A study of Mus musculus with 15 samples.

Results

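The interferon-induced GTPases described here are 10 genes of 2 families. They were chosen by name, with no measured value in the rule but with earlier results of these data known. They are 5 guanylate-binding protein (GBP) genes, Gbp2, Gbp3, Gbp5, Gbp6 and Gbp7, and 5 immunity-related GTPase (IRG) genes, Igtp, Irgm1, Irgm2, Iigp1 and Tgtp2, out of 21839 genes counted. All 10 had a row in the counts, and all 10 passed the filter on low counts that left 13887 genes to test. The RNA came from lymphatic endothelium of C57bl/6 mice, 10 weeks old, that carried a transplanted lymphangiogenic melanoma line. Cells were sorted as negative for CD45 and positive for CD31 and gp38 from the tumor (Tumor), from the lymph node that drains it (TdLN) and from a lymph node that does not (NdLN), with 5 libraries in each group. The labels do not say whether a library came from 1 animal or from a pool, and no further genotype or treatment is named, so that each p-value here covers only the spread from library to library.

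Both families are part of cell-autonomous defence, in which an infected cell attacks a microbe or the compartment around it. GBPs are large dynamin-like GTPases that coat vacuoles and free bacteria and help the non-canonical inflammasome. Among the IRGs, Iigp1 and Tgtp2 are effectors that load onto the vacuole of a parasite, while Igtp, Irgm1 and Irgm2 sit on the membranes of the cell itself and keep the effectors inactive there. Their genes are induced by interferon-gamma through transcription factors that include IRF1 and also by type I interferon, and endothelial cells are among those that induce them.

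The stretches before the start sites are shown first because Igtp and Irgm2, whose ratio is compared between the groups below, have near-identical ones. The RefSeq promoter windows used here (GRCm38.p6) have 300 bases each, 250 before and 50 after a start site. There were 9 windows for 8 of the 10 genes, and Gbp6 and Iigp1 were not covered. They were searched on both strands for a core of the interferon-stimulated response element (ISRE), which is GAAA, any 2 bases and GAAA again, and for TTCNNNGAA, the gamma-activated site (GAS). An ISRE match was present for 8 of the 8 genes, counted by gene, against 3.44% of all 32851 windows, counted by window. Gbp3 also had a window, at its downstream start site, with no match of either kind. The Irgm1 window begins inside an annotated exon. A GAS match was present for 5 genes, Gbp5, Gbp7, Tgtp2, Igtp and Irgm2, against 8.3% of all windows. In 3 IRG genes the GAS match lay 2 bases before the ISRE match. In Gbp3 and in Irgm1 2 ISRE matches overlapped each other, and no ISRE match overlapped a GAS match in these windows. A match describes letters and is not evidence of binding. Capitals mark the matches in the following stretches, written 5′ to 3′ on the strand of the gene.
Igtp, chr11:58199491-58199551, plus strand: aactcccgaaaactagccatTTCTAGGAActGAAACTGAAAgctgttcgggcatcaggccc
Irgm2, chr11:58214882-58214942, plus strand: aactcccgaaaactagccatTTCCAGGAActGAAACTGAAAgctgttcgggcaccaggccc
Tgtp2, chr11:49064253-49064313, minus strand: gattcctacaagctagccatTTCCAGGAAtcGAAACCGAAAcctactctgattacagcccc
Gbp7, chr3:142530210-142530312, plus strand: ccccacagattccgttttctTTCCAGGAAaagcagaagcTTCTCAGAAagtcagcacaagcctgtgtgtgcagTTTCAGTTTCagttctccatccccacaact
Gbp3, chr3:142559979-142560025, plus strand: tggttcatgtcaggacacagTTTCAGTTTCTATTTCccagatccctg
The Igtp and Irgm2 stretches of 61 bases were identical at 59 of them. With Igtp's base first and positions counted from 1 at the 5′ end of the printed stretch, the 2 differences were T24C, inside the GAS match, and T54C. The Irgm2 stretch lies inside the gene as GENCODE draws it, before the start site that RefSeq gives and outside annotated exons. The Tgtp2 stretch was identical to that of Igtp at 42 bases.

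On GRCm38 the genes lie in clusters (GENCODE M21). Gbp2 (chr3:142620602-142638008), Gbp3 (chr3:142560026-142573209), Gbp5 (chr3:142493978-142522344) and Gbp7 (chr3:142530342-142550149) stand together on the plus strand of chromosome 3, and Gbp6 (chr5:105270702-105293698) on the minus strand of chromosome 5. Igtp (chr11:58199556-58207591) and Irgm2 (chr11:58199618-58222782) overlap on the plus strand of chromosome 11 and share 162 exonic bases, 8.01% of Igtp and 4.39% of Irgm2. Irgm1 (chr11:48861968-48871683) and Tgtp2 (chr11:49057194-49064206) lie on the minus strand of the same chromosome. A read of 50 bases may fit near-identical copies equally well, so the counts of Tgtp2 (with Tgtp1) and Gbp6 (with Gbp10 and with Gm43302, which shares 29.0% of its exonic bases) are uncertain.

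Total counts ran from 31894931 to 37437282 in NdLN, 32134127 to 37043976 in TdLN and 23830337 to 34577494 in Tumor libraries. Levels are counts scaled to a common library size (CPM), set by library total and TMM factor. The node libraries carried the markers of the sort. Prox1, the transcription factor of lymphatic identity, had a level of 766 ± 52.9 CPM (SD, n = 5) in NdLN libraries, 539 ± 74.9 in those of TdLN and 105 ± 22.7 in those of Tumor. Pdpn, which encodes gp38, had 124 ± 20.7, 120.1 ± 15.4 and 116 ± 46.4 CPM in that order, Pecam1, which encodes CD31, 1596 ± 84.7, 1179 ± 87.1 and 276 ± 86.7 CPM, and Ptprc, which encodes CD45, 5.43 ± 3.77, 1.10 ± 0.943 and 1.68 ± 1.45 CPM. Tumor libraries also held transcripts of pigment cells. The 9 measured pigment cell markers, all of them present in each group, summed to 24375 to 40008 CPM there against 12.0 to 33.2 in TdLN and 17.8 to 37.8 in NdLN libraries. In the same libraries the 15 pan-endothelial genes summed to 2872 to 4148 CPM against 8742 to 10138 in TdLN. For that reason the fold changes of the 10 genes in the tumor are given on the TMM scale and also with the libraries scaled so that the pan-endothelial counts are equal. The 11 markers of lymphatic endothelium summed to 3380 to 4607 CPM in Tumor and 6119 to 7664 in TdLN libraries. On the TMM scale 7 of them were called lower in Tumor than in TdLN and 2, Ccl21a and Reln, higher. Scaling by the lymphatic list was not tried. In bulk RNA fewer cells of a type and less RNA per cell cannot be told apart. The 10 macrophage markers summed to 141 to 290.2 CPM in Tumor and 29.8 to 69.6 in TdLN libraries. The 8 markers of fibroblasts and reticular cells summed to 1330.0 to 10206 and 113 to 342 CPM. The 12 markers of T and NK cells summed to 29.4 to 44.1 CPM in the tumor and 44.3 to 77.7 CPM in TdLN, where Gzmb was at 0, against 36.9 to 55.9 CPM in NdLN. Between the nodes the 10 tested of these had a median log2 fold change of -1.44, and 1, Lck, was called higher. The part of other cells in the levels below was not tested.

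Per length, the order of the genes differed little between the nodes. In RPKM (CPM per kilobase of exons), Iigp1, Gbp2 and Igtp led in NdLN libraries, at 82.9 ± 18.5, 71.7 ± 12.7 and 64.6 ± 16.4 (SD, n = 5). Tgtp2 (15.4 ± 2.70), Gbp6 (6.34 ± 1.87) and Gbp5 (6.25 ± 0.755) were lowest. Ranges of neighbours in that order overlapped, except that Gbp7 lay above Tgtp2, and Tgtp2 above Gbp6, without overlap. In TdLN libraries the same 3 genes led, Iigp1 at 136 ± 44.9, Igtp at 109 ± 29.6 and Gbp2 at 92.9 ± 29.1 RPKM. The breaks without overlap lay between Gbp2 and Irgm1, between Gbp7 and Tgtp2 and between Tgtp2 and Gbp5. In Tumor libraries Igtp (147 ± 103) and Gbp2 (139 ± 54.0) came before Iigp1 (69.4 ± 29.1 RPKM), and the ranges of all neighbours overlapped.

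Within each group the genes stood high or low together, and single libraries stood apart. TdLN 3 had the highest level of its group for 10 of 10 genes, from 1.28 (Gbp7) to 1.87 times (Iigp1) the median of the other 4 TdLN libraries. Tumor 5 did so for 10 of 10 genes as well, from 1.66 (Gbp7) to 3.30 times (Igtp) the median of the other 4. NdLN 4 was highest for 8 genes, and Tumor 2 was lowest for 9. With each group's mean subtracted from log2 CPM, the 45 pairs of genes correlated over 15 libraries at 0.666 (Gbp5 with Irgm2) to 0.966 (Irgm1 with Tgtp2), with a median of 0.873. Without TdLN 3 and Tumor 5 the median was 0.731 over 13 libraries, and the same pairs set the limits, 0.0199 and 0.946. These correlations are a description, since all values of a library share its depth and scaling. TdLN 3 had the highest sum of its group for the markers of lymphatic endothelium (7664 CPM), blood endothelium (2607), fibroblasts (342), macrophages (69.6), B cells (32.0) and T and NK cells (77.7). Of the T and NK cell sum there, Lck made up 50.0 and Prf1 21.6 CPM. Its dendritic cell sum (47.1) was the lowest of the group, with Zbtb46 at 24.3 CPM against 76.3 to 94.1 in the other 4, while Ccr7 (4.03) was at its highest. Tumor 5 had the highest sum of its group for pigment cells (40008), fibroblasts (10206), blood endothelium (469.8) and B cells (8.37) and the lowest for dendritic cells (14.6), while macrophage (173) and T and NK cell markers (33.5) were within the range of the other Tumor libraries. Blood endothelial and fibroblast sums were thus the highest of the group in both libraries. The B cell sum was so as well, but in Tumor 5 it was close to that of Tumor 2 (8.34 CPM). The part of these cells in the levels of the 10 genes was not tested.

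**Figure D1:**
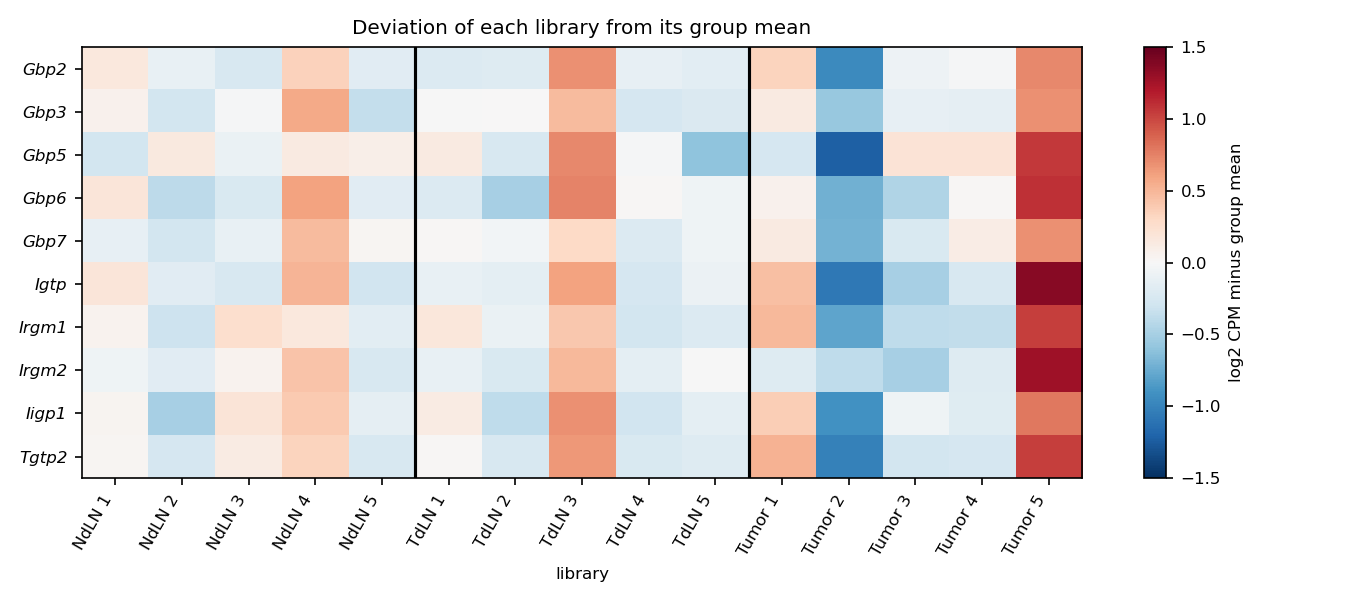
Deviation of log2 CPM from the group mean for each gene (rows) in each library (columns), with groups parted by black lines. The TdLN 3 and Tumor 5 columns are above 0 for all 10 genes, and the Tumor 2 column is below 0 for all 10.

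Does the lymphatic endothelium of the draining node differ in these genes from that of a node outside the drainage? Every one of the 10 genes had a higher mean in TdLN than in NdLN libraries, by a log2 fold change of 0.26 ± 0.23 (Gbp3) to 0.76 ± 0.36 (Igtp; SE), and none passed the test. In edgeR's quasi-likelihood test 0 of 10 were called at an adjusted p under 0.05, while 3.49% of all genes tested were (484, of which 256 were higher and 228 lower). With library totals alone as scaling that split was 329 and 189, and with equal pan-endothelial counts 371 and 62. Adjusted p-values of the 10 genes ran from 0.196 (Iigp1) to 0.668 (Irgm1). DESeq2 and limma's voom also called 0 of 10, and so did the fit without TdLN 3 and Tumor 5. At an unadjusted p under 0.05 edgeR had 2, Iigp1 and Gbp5, against 17.6% of all genes. The median log2 fold change of the 10 was 0.48, against -0.01 over all genes, of which 49.0% lay above 0. In data simulated for this comparison the test recovered 8.96% of 67 genes with a true fold of 1.5 (13144 genes tested). With a true fold of 2 it recovered 53.7% of 67 genes. These genes were drawn at random and not matched to the 10 in level or spread. With 5 libraries a group many true differences of this size were thus missed, and recovery of the 10 themselves was not tested.

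Iigp1, an effector IRG, was at 487, 335, 542, 619 and 431 CPM in NdLN 1 to 5 and at 832, 586, 1229.8, 628 and 689.7 CPM in TdLN 1 to 5. The lowest TdLN library lay below the highest NdLN library, and TdLN 3 was far above the rest. The log2 fold change was 0.72 ± 0.28 (SE, edgeR adjusted p = 0.196), and 0.50 without TdLN 3 (adjusted p = 0.361). Igtp, a regulator IRG, was at 145, 113, 108, 182 and 105 CPM in NdLN libraries and at 199, 195, 327, 181 and 203 CPM in TdLN libraries. NdLN 4 reached the level of the lowest TdLN library, TdLN 4, and the other NdLN libraries stayed below all TdLN libraries. The log2 fold change of Igtp was 0.76 ± 0.36 (adjusted p = 0.291), and 0.57 without TdLN 3 (adjusted p = 0.458). Gbp5, a GBP known for its part in inflammasome activation, stood at 34.1, 45.7, 38.6, 45.3 and 43.9 CPM in NdLN and at 71.3, 55.1, 108, 64.1 and 42.8 CPM in TdLN libraries. TdLN 5 lay within the NdLN range and the other TdLN libraries above it, with a log2 fold change of 0.72 ± 0.32 (adjusted p = 0.266). For the other 7 genes the log2 fold changes were 0.26 to 0.57, and no gene had groups without overlap (0 of 10, against 2.87% of all genes higher in this way).

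**Figure D2:**
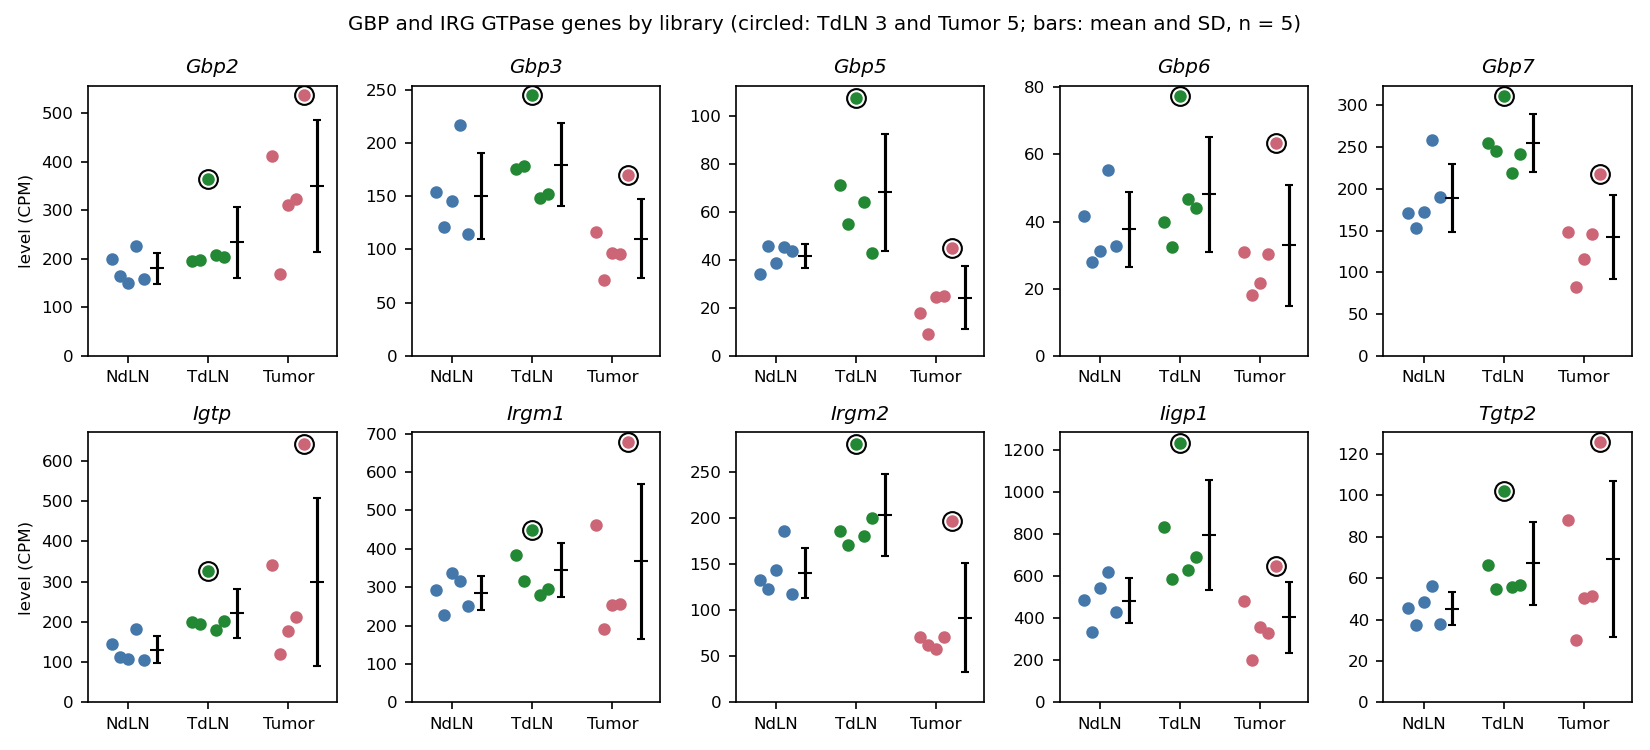
Level of each gene in CPM (vertical axes from 0) in each of the 15 libraries, with the mean and SD of each group (n = 5) as a black bar and TdLN 3 and Tumor 5 circled. The circled libraries are the highest of their group in all 10 panels, and Gbp7 is the 1 panel in which Tumor and TdLN points do not overlap.

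How does the tumor's lymphatic endothelium differ from that of the draining node? Of the 10 genes 5 passed the test, all of them lower on the TMM scale. On the TMM scale Gbp5, Irgm2, Iigp1, Gbp7 and Gbp3 fell, by 0.71 (Gbp3) to 1.49 (Gbp5) on the log2 scale, but with equal pan-endothelial counts Irgm2, Iigp1, Gbp7 and Gbp3 were above 0 and Gbp5 at -0.01. Gbp2, Igtp, Irgm1, Tgtp2 and Gbp6 did not pass on the TMM scale. Their log2 fold changes there were 0.58 ± 0.26, 0.43 ± 0.36, 0.09 ± 0.28, 0.04 ± 0.31 and -0.55 ± 0.32 (SE), and with equal pan-endothelial counts they were 2.09, 1.98, 1.62, 1.57 and 0.96. In edgeR's test 0 of 10 were called higher and 5 lower, against 31.9% and 30.1% of all genes tested (4434 and 4180). DESeq2 called 0 higher and voom 1. At an unadjusted p under 0.05 edgeR had 1 higher, Gbp2, against 33.8% of all genes. With equal pan-endothelial counts 7 of 10 were called higher and 0 lower, against 74.1% and 8.42% of all genes (10288 and 1169). That scaling moved the median log2 fold change of all genes from 0.04 to 1.49 and that of the 10 from -0.63 to 0.88, so that on either scale the median of the 10 lay below that of all genes. Which scale describes the lymphatic cells was not tested.

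Gbp5 was at 18.02, 9.18, 24.8, 24.8 and 44.8 CPM in Tumor 1 to 5, against the 42.8 to 108 CPM of the TdLN libraries. Tumor 5 alone reached into the TdLN range, and Tumor 2 was the lowest. The log2 fold change was -1.49 ± 0.33 (SE, edgeR adjusted p = 0.00108) on the TMM scale and -0.01 with equal pan-endothelial counts. Irgm2, a regulator IRG, was at 70.9, 62.4, 57.7, 70.9 and 197 CPM in Tumor libraries and at 186, 170.2, 280.2, 180.4 and 199.6 CPM in TdLN libraries. Tumor 5 lay within the TdLN range, and the other Tumor libraries were below it and close to each other. The log2 fold change of Irgm2 was -1.15 ± 0.30 (adjusted p = 0.00368), -1.64 without Tumor 5 and 0.37 with equal pan-endothelial counts. Iigp1 was at 483, 200.2, 359.7, 329.9 and 648 CPM in Tumor libraries, where Tumor 5 again lay within the TdLN range, with a log2 fold change of -0.97 ± 0.28 (adjusted p = 0.00719) against 0.53 with equal pan-endothelial counts. Gbp7 was at 149, 82.8, 116, 146 and 218 CPM in Tumor and at 255, 246, 312, 219 and 241 CPM in TdLN libraries. Its log2 fold change was -0.84 ± 0.21 (edgeR adjusted p = 0.00283). It was the 1 gene of the 10 whose groups did not overlap, against 22.5% of all genes lower in this way. Tumor 5, its highest tumor library, stood just under TdLN 4, the lowest of the draining nodes. Gbp7 and Gbp3 (110.1 ± 37.3 against 179.7 ± 38.9 CPM, adjusted p = 0.0133) had log2 fold changes of 0.65 and 0.79 with equal pan-endothelial counts.

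Gbp2, which is prenylated and moves to vacuoles of pathogens, was at 411, 169, 310.1, 324 and 537 CPM in Tumor libraries and at 196, 198, 365, 207 and 203 CPM in TdLN libraries. Tumor 2 was below all TdLN libraries, and Tumor 1 and Tumor 5 were above all of them. The difference did not pass (edgeR adjusted p = 0.0602), but did without TdLN 3 (0.79, adjusted p = 0.011), without Tumor 2 (0.72, adjusted p = 0.0123) and with voom (adjusted p = 0.0313). Igtp was at 341, 119, 177, 211 and 642 CPM in Tumor libraries. Tumor 1 and Tumor 5 were above all TdLN libraries and Tumor 2 and Tumor 3 below all of them, and the mean rested on Tumor 5, since without it the log2 fold change was -0.06 in place of 0.43. Irgm1, a regulator IRG with a part in autophagy, ranged over 190.0 to 678 CPM in Tumor and 280.3 to 448 CPM in TdLN libraries, and Tgtp2 over 30.3 to 126 and 54.9 to 102 CPM. Without Tumor 5 the log2 fold changes of these genes were -0.25 and -0.29, so on the TMM scale neither had a stable direction. Gbp6 had means of 32.9 ± 17.9 and 48.1 ± 17.1 CPM (SD, n = 5) and was called lower only where Tumor 5 was left out (-0.93, adjusted p = 0.00841, and -0.69 with TdLN 3 left out as well), among the alternatives on the TMM scale. With both libraries left out, 6 of 10 were called lower and 1, Gbp2, higher.

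**Figure D3:**
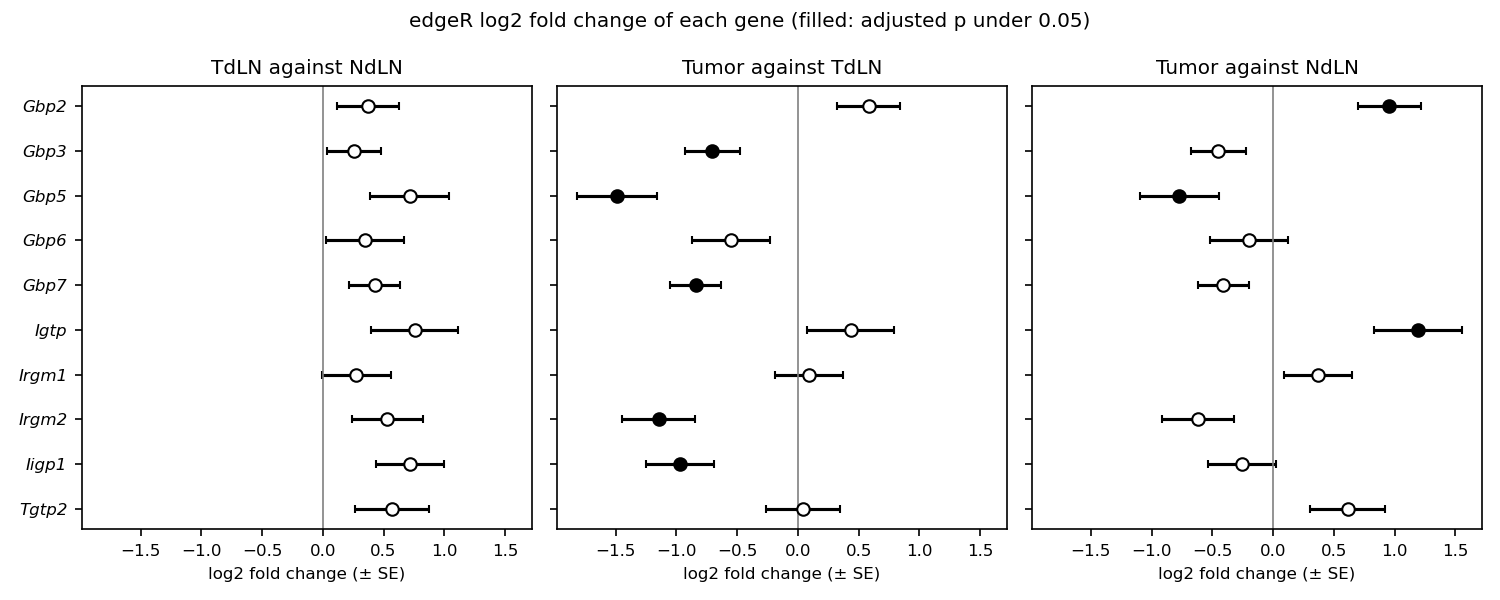
Log2 fold change with SE (horizontal axis, edgeR, TMM scale) of each gene in the 3 comparisons, with filled points at an adjusted p under 0.05. All 10 points lie above 0 for TdLN against NdLN with none filled, while 5 are filled below 0 for Tumor against TdLN.

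How does the tumor's lymphatic endothelium differ from that of the non-draining node? On the TMM scale Gbp2 (350.1 ± 136 against 180.3 ± 32.0 CPM) and Igtp (298 ± 209 against 131 ± 33.1 CPM) rose, and with equal pan-endothelial counts they stayed above 0, at 2.68 and 2.96. Gbp5 was lower, at 24.3 ± 13.1 against 41.5 ± 5.01 CPM, but with equal pan-endothelial counts its log2 fold change was 0.93. The log2 fold changes were 0.96 ± 0.26 (SE, edgeR adjusted p = 0.00417) for Gbp2, 1.19 ± 0.36 (adjusted p = 0.00908) for Igtp, which was 0.70 without Tumor 5 (adjusted p = 0.0349), and -0.77 ± 0.32 (adjusted p = 0.0469) for Gbp5. The call of Gbp5 was lost in 15 of 27 alternatives, among them the fits without NdLN 2, 3, 4 or 5, without TdLN 1, 2 or 4 and without Tumor 1, 2, 3 or 4, with adjusted p-values of 0.0516 to 0.102 in those fits. Of the 10 genes 2 were called higher and 1 lower, against 34.0% and 32.5% of all genes. Without Tumor 5 the counts were 2 and 4, since Gbp3, Gbp7 and Irgm2 (-1.10, adjusted p = 4.47e-05) also passed. The 7 genes other than Gbp2, Igtp and Gbp5 had log2 fold changes of -0.61 to 0.61 on the TMM scale and of 1.12 to 2.36 with equal pan-endothelial counts. Under the latter all 10 were called higher, as were 76.0% of all genes (10553), while 8.32% (1156) were called lower. Under that scaling the median of all genes was 1.71 and that of the 10 was 1.49. This comparison shares its Tumor libraries with the one before and its NdLN libraries with the first, so the 3 are not independent.

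**Figure D4:**
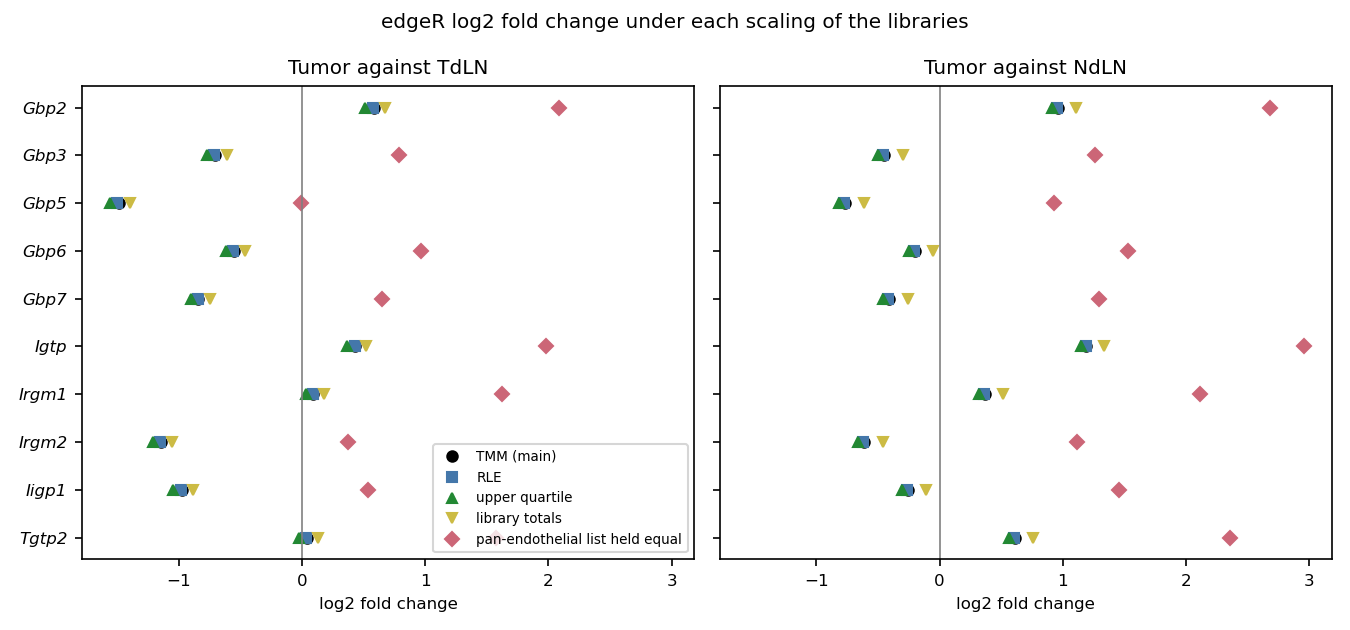
Log2 fold change of each gene (horizontal axis) against TdLN (left) and NdLN (right) under 5 scalings of the libraries. TMM, RLE, upper quartile and library totals lie close together, while scaling to equal pan-endothelial counts (diamonds) moves every gene to the right, in the left panel Gbp5 to -0.01 and Gbp2 to 2.09.

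The ratio of 2 genes within a library does not depend on how libraries are scaled, so the log2 ratio of every pair was compared between groups with a two-sided exact permutation test (n = 5 a group, smallest possible p = 0.00794), adjusted over all 135 tests. Between Tumor and TdLN 28 of 45 ratios differed, and between Tumor and NdLN 26 of 45. Between TdLN and NdLN 5 of 45 differed. The 45 ratios share genes and are not independent of each other. Of all genes, edgeR called 31.9% higher and 30.1% lower between Tumor and TdLN on the TMM scale. Ratios between other genes were not compared, so whether these counts are particular to this set of genes was not tested. In the tumor Gbp2 gained on 8 of its 9 partners, Igtp and Tgtp2 on 6 and Irgm1 on 5, while Gbp5 lost against 6 and Irgm2 against 5. Tgtp2 and Irgm1 also lost against 1 partner each. Ratios show that the levels of the genes in the libraries differed unequally, and not which of a pair changed. A ratio still depends on the mix of cells in a library, and the part of other cells in these ratios was not tested.

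Igtp and Irgm2, the neighbours with near-identical stretches before their start sites, kept a log2 ratio of CPM of 0.11 ± 0.10 in TdLN and -0.12 ± 0.20 in NdLN libraries (SD, n = 5). In Tumor libraries the ratio was 1.62 ± 0.47, higher than in every node library. The difference was 1.51 against TdLN (exact permutation p = 0.00794, adjusted p = 0.0206) and 1.74 against NdLN (exact permutation p = 0.00794, adjusted p = 0.0206), and 0.23 between the nodes (exact permutation adjusted p = 0.0744). The 2 genes share 162 exonic bases, and how reads there were assigned is not given in the sources used here. Gbp2 and Gbp5, on the same cluster of chromosome 3, went from a log2 ratio of 1.801 ± 0.29 in TdLN to 3.93 ± 0.41 in Tumor libraries, a difference of 2.13 (exact permutation adjusted p = 0.0206), the largest of the 45. Gbp2 and Gbp3, also neighbours, went from 0.36 ± 0.19 to 1.63 ± 0.23 (difference 1.27, exact permutation adjusted p = 0.0206), and Gbp2 and Iigp1 from -1.75 ± 0.20 to -0.20 ± 0.10 (difference 1.56, exact permutation adjusted p = 0.0206). In none of these pairs did Tumor and TdLN libraries overlap. Between the nodes Igtp took part in 4 of the 5 ratios that differed, rising against Gbp2 by 0.41 and against Gbp3 by 0.48 (exact permutation adjusted p = 0.0206 for each). That count of 5 was between 2 (without TdLN 3 or TdLN 5) and 8 (without TdLN 2) with 1 library left out, and 3 without NdLN 2, NdLN 5, TdLN 1 or TdLN 4.

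**Figure D5:**
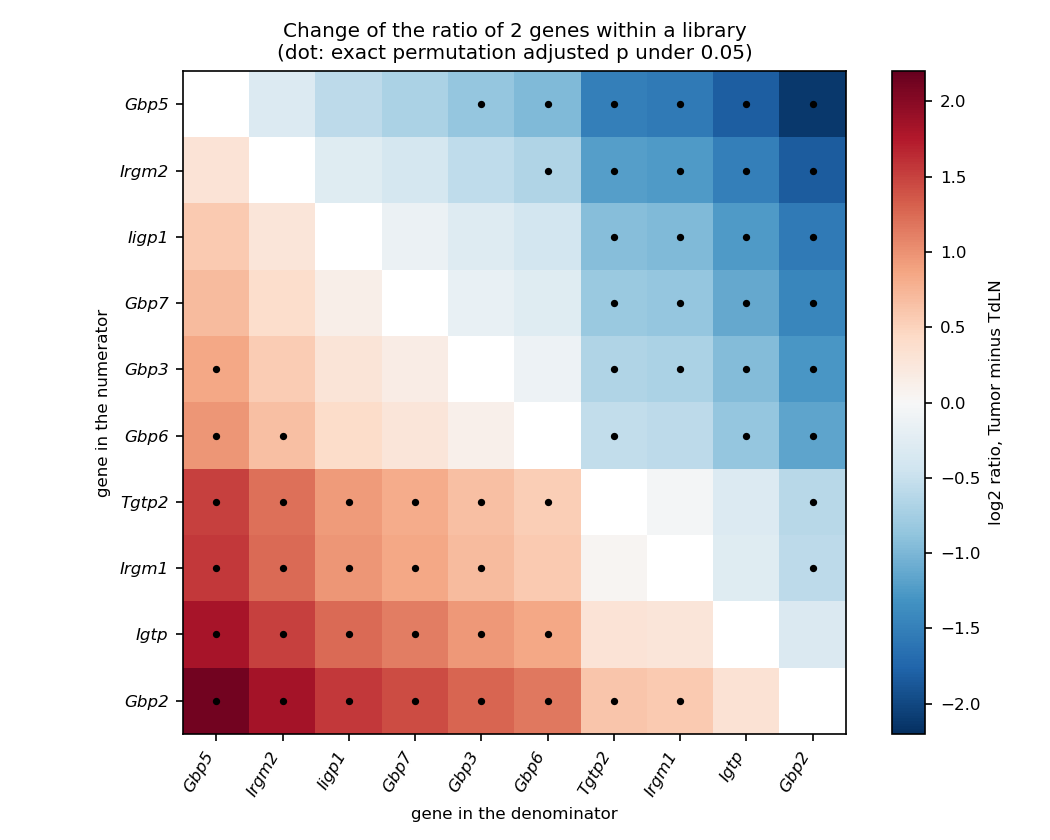
Difference between Tumor and TdLN in the mean log2 ratio of a gene (row) to another (column), in log2 units, with a dot where the exact permutation adjusted p was under 0.05. The row of Gbp2 holds 8 dots, all for gains, and the row of Gbp5 holds 6, all for losses.

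The genes that carry the interferon-gamma signal were read beside them. Ifng, the ligand, had 4 counts in NdLN 5 and 0 in the other 14 libraries, where 0 allows up to 0.0787 to 0.123 CPM (3 counts a library, counting error only). The receptor chain Ifngr1 averaged 295 ± 18.4 CPM in NdLN libraries, 271 ± 34.0 in those of TdLN and 78.2 ± 8.52 in those of Tumor, and Ifngr2 234 ± 24.5, 235 ± 64.3 and 135 ± 9.13 CPM. Irf1, a transcription factor that interferon-gamma induces, was at 561 ± 161, 407 ± 99.8 and 196 ± 56.8 CPM. Between the nodes 1 of 12 tested genes of this list rose, the phosphatase gene Ptpn2 (0.58 ± 0.13, edgeR adjusted p = 0.0205), and 0 did without NdLN 2, NdLN 4, TdLN 1 or TdLN 3, or without TdLN 3 and Tumor 5, where 5 were at an unadjusted p under 0.05. Irf1 (-0.46 ± 0.23, adjusted p = 0.319) did not pass. Between Tumor and TdLN 9 of 12 fell and 1 rose on the TMM scale, with a median log2 fold change of -1.04, while with equal pan-endothelial counts 4 were higher and 2 lower. Of all genes 30.1% fell and 31.9% rose on the TMM scale, and with equal pan-endothelial counts 74.1% were higher and 8.42% lower. The kinase gene Jak1 (-3.15 ± 0.16, -1.73 with equal pan-endothelial counts) and Ifngr1 (-1.79 ± 0.10 and -0.35) were the 2 lower on both scales, and Ciita, the activator of MHC class II genes (2.25 ± 0.57 and 3.80), was higher on both. Irf1 fell by 1.05 on the TMM scale but was at 0.44 on the other.

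Other genes of the same families were also counted. Of 18 further GBP and IRG genes listed, 16 had a row and 13 were tested, and 0 of 13 passed between the nodes in edgeR. DESeq2 and voom each called 1. Gm4951 (0.80 ± 0.25, edgeR adjusted p = 0.0999) was the 1 gene at an unadjusted p under 0.05. From TdLN to Tumor 5 of 13 fell and 1 rose on the TMM scale, against 2 lower and 6 higher with equal pan-endothelial counts, and without TdLN 3 and Tumor 5 on the TMM scale 7 fell and 1 rose. Of all genes 30.1% fell and 31.9% rose on the TMM scale, against 8.42% lower and 74.1% higher with equal pan-endothelial counts. Gbp9 (165 ± 45.4 to 36.8 ± 9.67 CPM, log2 fold change -2.17 ± 0.21) and the IRG-like gene 9930111J21Rik1 (-2.43 ± 0.22) were lower on both scales, at -0.70 and -0.98 on the latter. Ifi47, an effector IRG, fell by 1.35 on the TMM scale but was at 0.18 on the latter. Gbp10, low at 3.36 ± 2.66 CPM, rose to 12.9 ± 10.4 CPM (1.94 ± 0.62, and 3.47 on the latter scale), with 30.9 CPM in Tumor 5. Its call was lost without Tumor 5 (adjusted p = 0.0593). Gbp4 (0.04 ± 0.35) and Tgtp1 (-0.16 ± 0.32) did not pass in that comparison. Against NdLN 4 of the 13 fell and 1 rose on the TMM scale, against 1 lower and 9 higher with equal pan-endothelial counts. The shares of all genes there were 32.5% and 34.0% on the TMM scale, against 8.32% and 76.0%. Gbp11 had 0 counts in all 15 libraries. The dynamin-like Mx1 and Mx2 and the very large GTPase genes Gvin1 and Gm4070 all 4 fell from TdLN to Tumor on the TMM scale, by 1.23 (Gvin1) to 1.96 (Mx1), with the call of Gvin1 lost without TdLN 3, Tumor 1, Tumor 4 or Tumor 5, while 0 of 4 passed with equal pan-endothelial counts, and 0 of 4 passed between the nodes (edgeR, DESeq2 and voom, and 0 at an unadjusted p under 0.05).

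Genes that work with these GTPases, or share their inducers, gave the following counts. Of 19 tested other targets of interferon-gamma, Cxcl9, a chemokine for T cells (2.41 ± 0.52, edgeR adjusted p = 0.0192), and the peptide transporter gene Tap1 (0.71 ± 0.18, adjusted p = 0.0451) rose between the nodes, with a median over the list of 0.41. Cxcl9 was at 20.8, 12.0, 43.0, 28.7 and 46.6 CPM in NdLN and at 129, 85.4, 367, 95.0 and 127 CPM in TdLN libraries, highest in TdLN 3. With 1 library left out 0 to 2 of the 19 were called higher. The call of Cxcl9 was lost without NdLN 1, 2 or 4, and that of Tap1 in 11 of the 15 fits, without any of the 5 NdLN libraries, TdLN 1, 2, 3 or 5, or Tumor 3 or 4. Of 18 tested type I interferon targets 2 rose, Oas1a (1.33 ± 0.27) and Zbp1 (1.23 ± 0.27), with a median of 0.58, while DESeq2 called 5 and voom 3. With 1 library left out 1 to 7 were called, with 7 without NdLN 4. The call of Zbp1 was lost where NdLN 2, NdLN 5, TdLN 1, TdLN 2 or TdLN 3 was left out. Of 9 tested genes of type I signalling 0 passed (edgeR, DESeq2 and voom), with 2 at an unadjusted p under 0.05. Of the 19 interferon-gamma targets 12 fell from TdLN to Tumor and 1, Cxcl11, rose on the TMM scale, against 2 lower and 10 higher with equal pan-endothelial counts. Of the 18 type I targets 13 fell and 1, Rsad2, rose, against 2 and 6. Of the 9 type I signalling genes 7 fell, against 0 lower and 4 higher. Of all genes 30.1% fell and 31.9% rose on the TMM scale, against 8.42% lower and 74.1% higher with equal pan-endothelial counts. The autophagy conjugation genes, on which IRG and GBP targeting depends, encode ubiquitin-like proteins and the proteins that attach them to membranes. From TdLN to Tumor 3 of 10 fell on the TMM scale, Gabarapl1 (by 0.79), Map1lc3b and Atg12, where 30.1% of all genes did. On the other scale 10 of 10 were higher, as were 74.1% of all genes. Between the nodes Gabarapl1 was the 1 of 10 that fell (-0.58 ± 0.10, adjusted p = 0.00436), and it did not pass with equal pan-endothelial counts (-0.35, adjusted p = 0.141). Of 7 tested inflammasome genes 0 passed between the nodes in edgeR and DESeq2 and 1 in voom, with 2 at an unadjusted p under 0.05 in edgeR. Against TdLN, 5 of them fell in the tumor and 2 rose on the TMM scale, against 2 lower and 3 higher on the other. Casp1, the protease that matures interleukin-1 (-4.81 ± 0.26 and -3.35), was lower on both, and Casp4, which senses bacterial lipopolysaccharide in the cytosol with help of GBPs, was lower on the TMM scale (-1.75 ± 0.16) but did not pass on the other (-0.28).

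The genes whose pattern was most like that of the 10 were found by the correlation of log2 CPM, with group means subtracted, to the mean of the 10 over 15 libraries. Among the 8 nearest were, in order, Gbp4 (r = 0.955), Ifi47 (0.949), Tgtp1 (0.946), Gm4951 (0.921), the MHC class I-like gene H2-T22 (0.913), the ubiquitin-like gene Ubd (0.912) and Gm12185 (0.912). Without TdLN 3 and Tumor 5 the r of these 7 ran from 0.836 (Gm12185) to 0.974 (Gm4951) over 13 libraries. Of these, Gbp4, Ifi47, Tgtp1, Gm4951 and Gm12185 belong to the GBP and IRG families.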

How the data were processed

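RNA of 15 libraries, 5 each of NdLN, TdLN and Tumor, was amplified with a low-input kit that does not mark strand and read as single 50-base reads, per the labels' protocols. The authors deposited raw read counts per gene, made with CASAVA 1.8.2, STAR 2.4 and featureCounts 1.4.6 on GRCm38, per the submitters' processing notes. For the annotation release and strand setting: not given in the sources used here. Of 21839 gene IDs, 21628 matched GENCODE M21. Total counts ran from 23830337 to 37437282 per library, and replicates differed by more than sampling noise in all 30 pairs within groups.

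Counts were filtered with filterByExpr, scaled with TMM factors and fitted over all 15 libraries with edgeR's robust quasi-likelihood test (edgeR 4.0.16, R 4.3.3), with Benjamini-Hochberg adjustment over 13887 genes and a threshold of 0.05. SE is the log2 fold change divided by the root of F. Recovery was tested on simulated data. Alternatives were other scalings and filters, a replicate block, edgeR's glmTreat with a minimum log2 change of 1, fits of the compared groups alone, DESeq2 1.42.0, limma 3.58.1 (voom) and each library left out. Equal pan-endothelial scaling held the summed counts of 15 endothelial genes constant.

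The 10 genes and all lists were chosen with earlier results of these data known. The text names the 10 genes, up to 4 genes with the smallest adjusted p of each list, the main interferon-gamma signalling genes, the sort markers and the 8 genes most like the 10 in pattern, except 1 gene that is not reported here. Ciita, Gbp10, Gbp11, Cxcl11, Rsad2 and Socs1 were named after their values were seen. The tests of ratios between genes, and the fits without TdLN 3 and Tumor 5 together, were added after seeing the data. Promoter windows come from RefSeq (GRCm38.p6).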

Additional observations from a re-analysis of the deposited data

Results flagged for a closer look

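Of 30 sets of 5 libraries (10 genes in 3 groups), 6 held a library whose gap to its nearest neighbour, divided by the range of the group, was above Dixon's critical value of 0.71. By chance the rule marks a few percent of such sets, and the genes are not independent of each other. TdLN 3 stood above the other TdLN libraries for Gbp2 (365 CPM, gap 0.935 of the range), Igtp (327 CPM, 0.851), Tgtp2 (102 CPM, 0.762) and Irgm2 (280.0 CPM, 0.733). Tumor 5 stood above the other Tumor libraries for Irgm2 (197 CPM, 0.905) and Gbp6 (63.4 CPM, 0.714). In each of these 2 libraries the other genes of the 10 were also at the highest level of the group, with gaps under the critical value.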

How the results depend on the processing

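Between TdLN and NdLN the count of called genes among the 10 was 0 in all 27 alternatives, and all genes called numbered 972 with DESeq2, 817 with voom, 0 with glmTreat, 306 without TdLN 3 and Tumor 5, and 225 to 741 with each library left out. Between Tumor and TdLN glmTreat called 0 of the 10 and 3525 of all genes. Between Tumor and NdLN glmTreat called 0 of the 10 and 4189 of all genes, voom 6 of the 10, equal pan-endothelial scaling 10, the fit without TdLN 3 and Tumor 5 7, and fits with 1 library left out 2 to 6, with 6 without Tumor 5.

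Equal pan-endothelial scaling turned the log2 fold changes against TdLN of Gbp3 (0.79), Gbp6 (0.96), Gbp7 (0.65), Irgm2 (0.37) and Iigp1 (0.53), and those against NdLN of Gbp3 (1.26), Gbp5 (0.93), Gbp6 (1.53), Gbp7 (1.29), Irgm2 (1.12) and Iigp1 (1.46). Directions near 0 between Tumor and TdLN also turned: Tgtp2 with upper quartile factors (-0.027), Irgm1 and Tgtp2 with voom (-0.076 and -0.079) and without TdLN 3 and Tumor 5 (-0.14 and -0.088). With 1 library left out, Igtp ran from -0.059 (without Tumor 5) to 0.61, Irgm1 from -0.25 (without Tumor 5) to 0.22 and Tgtp2 from -0.29 (without Tumor 5) to 0.24. The causes were not tested.

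The labels do not say whether libraries with the same replicate number came from 1 animal. Of 15 pairs with the same number 4 correlated above 0.1 (range -0.21 to 0.25), and in 4 of 15 the library correlated best with its own number. A weak correlation between different tissues does not exclude a shared animal, so pairing is unknown. With the replicate block 0, 5 and 4 of the 10 genes were called in the 3 comparisons, Irgm2 being added against NdLN (-0.74), and Irgm1 (-0.000376) and Tgtp2 (-0.038) turned against TdLN.

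Ratios that differed numbered 2 to 8 of 45 between the nodes with 1 library left out and 2 without TdLN 3 and Tumor 5. Between Tumor and TdLN leaving out both gave 0, because 4 libraries against 4 reach no exact permutation p below 0.0286.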

Other observations

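TdLN 3, in which all 10 genes were at the highest level of the draining nodes, was well below the rest of that group for 2 genes of the interferon-gamma pathway. Both were picked after their values were seen. Socs1, an inhibitor of JAK kinases that interferons induce, was at 6.76 CPM there and at 56.5 to 92.6 CPM in the other 4 TdLN libraries. Ifngr2, the signalling chain of the interferon-gamma receptor, was at 124 CPM there and at 238 to 278 CPM in the other 4. Such low values there were not particular to this pathway: the autophagy genes Atg3 (27.9 CPM against 69.2 to 84.5 in the other 4) and Map1lc3a (13.4 CPM against 40.4 to 84.8) and the endothelial transcription factor gene Sox18 (118 CPM against 268 to 324), also picked after their values were seen, were also well below the rest of the group. In Tumor 5, the other library that stood apart, Socs1 (19.0 CPM) and Ifngr2 (136 CPM) were within the range of the other Tumor libraries, at 17.4 to 30.8 and 121 to 146 CPM.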
